A study of Mus musculus with 12 samples.

Results

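The early growth response (EGR) transcription factors and their NAB corepressors were followed across 4 groups of W-20 bone marrow stromal cell (BMSC) libraries. The set comprised 5 of the 56980 genes in the count matrix, *Egr1*, *Egr2*, *Egr3*, *Nab1* and *Nab2*, found by matching gene identifiers to their symbols. The set was chosen by gene family after earlier results of these data were known, among them the level of *Egr2* in Y428F cells treated with PTH or vehicle. The PTH changes in Y428F cells and the differences in response between the lines are therefore given for the 5 genes as descriptions, with no test, and so are the differences of *Egr2* between the lines. All 5 were among the 17691 genes that passed the filter of at least 10 counts in total. PTH raised *Nab2* 2.79-fold and *Nab1* 1.30-fold in WT cells, whereas the change of *Egr1*, *Egr2* or *Egr3* did not pass the test. With vehicle, Y428F cells had 5.74-fold less *Egr2*, 2.39-fold less *Egr1* and 1.5-fold less *Nab2* than WT cells. *Egr2* in Y428F cells was 4.90-fold higher with PTH than with vehicle.

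EGR1, EGR2 (also called KROX20) and EGR3 are zinc finger proteins that bind GC-rich DNA and are classed as immediate early genes, since growth factors, hormones and stretch induce them within minutes and without new protein synthesis. NAB1 and NAB2 have no DNA-binding domain of their own. They bind EGR1, EGR2 and EGR3 and hold down transcription from EGR-bound promoters, in part through the chromatin remodeling complex NuRD, and *Nab2* is itself known as an EGR-induced gene, so that the family forms a feedback loop. In bone, *Egr1* is a known early PTH-responsive gene of osteoblasts, and EGR2 is needed for endochondral bone formation as well as for myelin and hindbrain development.

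The murine BMSC line W-20 (W-20-17 in the labels) was used throughout. Each group held 3 libraries of bulk mRNA: WT cells with vehicle (PBS), WT cells with 50 nM PTH, Y428F cells with vehicle and Y428F cells with PTH, all for 2 hours. Y428F names a tyrosine-to-phenylalanine change in YAP, the transcriptional coactivator held back by the Hippo pathway. The line was made by introducing Flag-tagged YAP and selecting puromycin-resistant clones, so it keeps its own *Yap1* and carries added YAP. The study's text names the sequenced mutant as a line whose YAP also carries a serine-to-alanine change at a LATS1 site, whereas the titles give Y428F alone. The name Y428F is kept here for that line. The genotype field of the Y428F libraries reads WT, and the groups were taken from the titles. No library of cells given an unmutated YAP construct was analysed here, so the Y428F change cannot be told apart from the serine change, the added YAP, selection or clonal differences. The study describes its data in general as coming from independent experiments, but neither the labels nor the RNA-Seq methods say that the libraries were separate cultures, so p-values measure the spread between these libraries, which may be technical.

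Sequencing depth was similar in all groups, between 17127897 and 19057319 expected counts per library. Expression is given in CPM, counts scaled to library size with edgeR's TMM factors, as mean ± SD of 3 libraries. Tests were edgeR's quasi-likelihood test fitted to all 12 libraries, and a gene was called changed where its adjusted p was below 0.05. Genes that mark stromal cells were abundant. *Col1a2* averaged 12829 CPM and *Vim* 4726 CPM in WT cells with vehicle, whereas *Thy1* had 0 counts in all 12 libraries and *Nt5e* at most 2 counts. Of 6 osteoblast genes, only *Runx2* exceeded 100 counts in a library. The blood cell genes *Cd3e* and *Mpo* had 0 counts throughout, *Sox10*, the defining factor of Schwann cells, had at most 1 count, and *Ngfr* had none. Stromal genes summed to 25071, 26556 and 28282 CPM in WT libraries with vehicle and to 19595, 18239 and 18769 CPM in Y428F libraries with vehicle, with *Col1a2* the most abundant. With PTH these sums were 27787, 28664 and 25271 CPM in WT cells and 15640, 18561 and 17664 CPM in Y428F cells. Of 12 stromal genes, 10 were tested, and with vehicle 7 were lower and 2 higher in the Y428F line, where 22.7% of all tested genes were called lower and 22.4% higher. The numbers with PTH were 8 and 2, against 23.0% and 22.8% of all genes. *Pdgfra*, a receptor of mesenchymal progenitors, averaged 95.2 ± 15.2 CPM in WT cells against 31.6 ± 1.84 CPM in Y428F cells, and *Vcam1* 158 ± 9.34 against 46.6 ± 1.98 CPM. With PTH, 4 of the 10 were called in WT cells and 3 in Y428F cells, where 13.4% and 12.4% of all genes were called. In WT cells *Vim* rose while *Pdgfra*, *Pdgfrb* and *Vcam1* fell, and in Y428F cells *Vim* rose while *Pdgfra* and *Col1a1* fell. The calls of *Pdgfrb* and *Vcam1* in WT cells were lost in 12 and 10 of 19 alternatives, and those of *Vim* and *Col1a1* in Y428F cells in 2 each.

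Some markers of other cell types also differed between the lines, in comparisons where 45.1% of all genes were called with vehicle and 45.7% with PTH. Adipocyte genes summed to between 102 and 117 CPM in the 6 WT libraries, to between 54.5 and 57.6 CPM in Y428F cells with vehicle and to between 80.6 and 83.7 CPM with PTH. Of 6 adipocyte genes, 4 were tested. *Cebpa* and *Fabp4* were lower and *Pparg* higher in Y428F cells with either treatment, and *Pparg*, the most abundant of them with PTH, rose with PTH in both lines, while *Adipoq* had 0 counts. Hematopoietic genes summed to between 1.18 and 2.62 CPM in WT libraries and between 6.57 and 8.49 CPM in Y428F libraries, with *Hba-a1* the most abundant, and *Hba-a1* and *Ptprc* were higher in Y428F cells with either treatment (2 of 3 tested, of 7 listed). Endothelial genes summed to between 0.91 and 1.77 CPM in WT and between 6.12 and 9.94 CPM in Y428F libraries. *Cdh5* was the 1 of 4 tested that was higher, at 0.81 ± 0.282 CPM in WT cells and 7.95 ± 0.865 CPM in Y428F cells with vehicle, while *Pecam1* stayed at or below 6 counts. Schwann cell and neural genes summed to between 1.54 and 2.05 CPM in WT and between 0.11 and 0.556 CPM in Y428F libraries, and *S100b* was lower (1 of 4 tested, of 6 listed). Of the osteoblast genes, *Runx2* was 1.23-fold lower in Y428F cells with vehicle. The part of these marker differences in the EGR and NAB differences given below was not tested.

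Sequence before listed starts of *Egr2* is shown because *Egr2* had the widest fold range of levels among the 5 genes. It was taken from the RefSeq promoter table (GRCm38.p6), and its position was found by an exact match to the GRCm39 genome. Searched on both strands in the 250 bases before each listed start were the EGR site (GCGTGGGCG or GCGGGGGCG), the cyclic AMP response element (CRE) TGACGTCA, its core TGACG, which every full CRE contains, the CArG box bound by serum response factor (SRF), and the TEAD site GGAATG. *Egr2*, *Nab1* and *Nab2* were listed in the table. Only *Egr2* windows with a match are shown, and of overlapping ones the longest run. Capitals mark matches in these runs, which lie outside the exons of protein-coding genes and end where an *Egr2* exon begins or at the listed start:
Egr2 proximal, chr10:67373449-67373691, plus strand: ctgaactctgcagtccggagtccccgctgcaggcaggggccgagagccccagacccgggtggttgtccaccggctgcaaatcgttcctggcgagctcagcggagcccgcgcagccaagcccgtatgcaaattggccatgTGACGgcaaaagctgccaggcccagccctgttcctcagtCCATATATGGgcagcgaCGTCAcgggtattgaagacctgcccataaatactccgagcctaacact
Egr2 upstream, chr10:67373146-67373395, plus strand: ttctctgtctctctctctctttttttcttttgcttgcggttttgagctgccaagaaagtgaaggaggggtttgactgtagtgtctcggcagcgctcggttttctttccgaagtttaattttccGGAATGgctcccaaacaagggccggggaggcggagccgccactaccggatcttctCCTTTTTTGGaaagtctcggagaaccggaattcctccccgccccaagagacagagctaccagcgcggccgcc

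The proximal run held a CArG box, CCATATATGG, at positions -72 to -63 from the listed start. It was flanked by TGACG at -111 to -107 and by the same core on the opposite strand at -55 to -51, printed as CGTCA. The upstream run held a CArG box, CCTTTTTTGG, at -72 to -63 from its own start and a TEAD site at -127 to -122. Both printed runs lie inside the annotated span of *Egr2*, which begins at 67371305, ahead of listed starts within it. A window farther upstream, chr10:67371079-67371304, which ends at the annotated start of the gene, held none of these letter strings. Of 32851 promoters in the table, 1.47% held a CArG box, 17.8% the CRE core, 1.55% the full CRE, 12.6% the TEAD site and 3.06% an EGR site. The *Nab1* window held 3 EGR sites, at -141 to -133, -109 to -101 and -38 to -30, a CRE core at -123 to -119 and a TEAD site at -207 to -202. The *Nab2* window, chr10:127502573-127502822, held none of these letter strings. It lies inside the gene, whose annotated start on the minus strand is at 127504458. The sequence before that annotated start was not searched. Both NAB windows lie largely within annotated exons (231 and 250 of 250 bases) and are not printed. These matches describe sequence, not binding.

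In GRCm39, *Egr1* (ENSMUSG00000038418.8) lies on chromosome 18 from 34992876 to 34998049 on the plus strand, and *Egr3* (ENSMUSG00000033730.5) on chromosome 14 from 70314350 to 70320063, also on the plus strand. *Egr2* (ENSMUSG00000037868.16) spans 67371305 to 67378018 on the plus strand of chromosome 10. *Nab2* (ENSMUSG00000025402.13) is on the minus strand of the same chromosome, from 127496786 to 127504458, and *Nab1* (ENSMUSG00000002881.15) on the minus strand of chromosome 1, from 52494147 to 52539838. The strand used in counting was not given in the sources used here, so reads of overlapping genes on opposite strands cannot be told apart. *Nab2* overlaps *Nemp1* by 1689 bases and *Stat6* by 77 bases. *Nemp1* averaged 9.69 ± 0.774 CPM with vehicle and 10.5 ± 0.738 CPM with PTH in WT cells (adjusted p = 0.634, edgeR quasi-likelihood test). *Stat6*, the more abundant neighbour, averaged 139 ± 10.3 and 133 ± 7.54 CPM (adjusted p = 0.602). Between the lines with vehicle, *Stat6* was lower in Y428F cells (-0.15 on the log2 scale, adjusted p = 0.0476, edgeR quasi-likelihood test) and *Nemp1* higher (0.74, adjusted p = 1.19e-05). With PTH the differences were -0.15 (adjusted p = 0.053) and 0.77 (adjusted p = 6.64e-06), and their part in the *Nab2* values was not tested. *Gm16229*, a long noncoding RNA within the same overlap, held 36 counts in all libraries together. *Egr2* overlaps the long noncoding RNA *Gm66196* by 565 bases, for which no counts were analysed here.

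Compared per kilobase of exon, the corepressors were more abundant than the transcription factors in every group. In WT cells with vehicle, *Nab2* averaged 12.8 ± 1.87 CPM per kilobase, *Nab1* 7.51 ± 0.525, *Egr1* 3.88 ± 0.78, *Egr2* 1.15 ± 0.452 and *Egr3* 0.381 ± 0.131. No neighbours in that order overlapped between libraries. The same order held in both PTH-treated groups. In Y428F cells with vehicle, *Nab2* (8.54 ± 0.401 CPM per kilobase) and *Nab1* (7.88 ± 0.489) overlapped, as did *Egr3* (0.25 ± 0.049) and *Egr2* (0.198 ± 0.0248). With the union of exons as length, the first of each pair was higher within each library, for the *Egr* pair on 11 to 26 counts per gene. This order within single libraries depends on the length used. The other EGR-type zinc finger genes, *Egr4* and the related *Wt1*, had 0 counts in all 12 libraries. A count of 0 allows up to 3 counts, or 0.157 to 0.175 CPM per library, and covers counting error only.

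**Figure D1:**
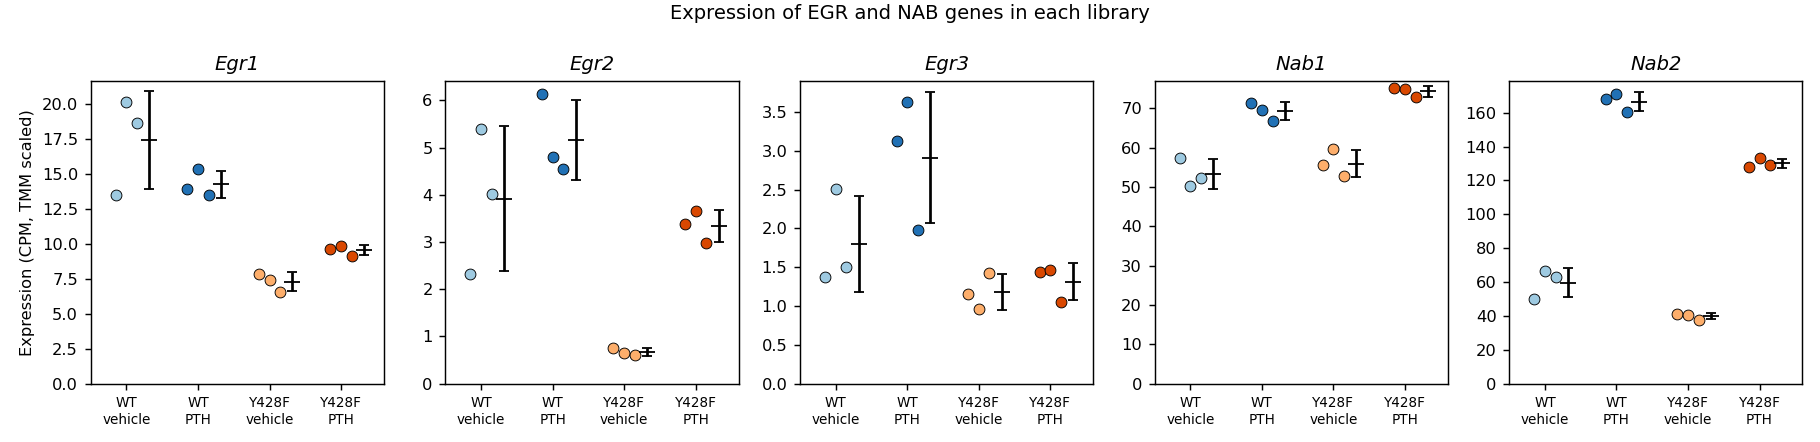
Expression of *Egr1*, *Egr2*, *Egr3*, *Nab1* and *Nab2* (CPM, linear axes starting at 0 and differing between panels) in each of 12 libraries. Points are libraries and the black marks are mean ± SD of 3; *Nab2* was between 160 and 171 CPM in WT cells with PTH and between 49.9 and 66.6 CPM with vehicle, and *Egr2* stayed at or below 0.767 CPM in Y428F cells with vehicle.

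To ask how PTH acted on the family in WT cells, PTH-treated and vehicle-treated WT libraries were compared. *Nab2*, the inducible corepressor, measured 49.9, 66.6 and 62.7 CPM with vehicle and 168, 171 and 160 CPM with PTH. All PTH libraries lay far above all vehicle libraries. *Nab2* rose by a log2 fold change of 1.48 (SE 0.0764, adjusted p = 4.19e-11, edgeR quasi-likelihood test), rank 34 of 11218 genes averaging 2 CPM or more. *Nab1*, the more constitutive corepressor, measured 57.4, 50.2 and 52.2 CPM with vehicle and 71.4, 69.5 and 66.8 CPM with PTH. Its groups did not overlap either, and it rose by 0.38 (SE 0.064, adjusted p = 0.000373, edgeR quasi-likelihood test). Thus 2 of 5 members were called higher and 0 lower in edgeR's test, where 7.42% of all tested genes were called higher and 6.01% lower (13.4% in either direction). At an unadjusted p below 0.05 the counts were 3 and 1, and DESeq2 called 2 and 0. Groups did not overlap, in the higher direction, for the same 2 members and for 13.2% of all genes.

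None of the transcription factors changed past the threshold in WT cells at 2 hours. *Egr1* measured 13.5, 20.2 and 18.6 CPM with vehicle and 13.9, 15.4 and 13.5 CPM with PTH. The groups overlapped through vehicle replicate 1, the lowest of its group, and the log2 fold change was -0.29 (SE 0.123, adjusted p = 0.142, edgeR quasi-likelihood test). Without that library it was -0.43 and passed the threshold (adjusted p = 0.00718). *Egr2* measured 2.33, 5.4 and 4.02 CPM with vehicle and 6.13, 4.8 and 4.54 CPM with PTH, again with vehicle replicate 1 lowest and with overlapping groups. Its log2 fold change was 0.40 (SE 0.228, adjusted p = 0.295), and 0.14 without that library or 0.71 without vehicle replicate 2, neither of which passed. *Egr3*, the least abundant member, measured 1.38, 2.5 and 1.5 CPM with vehicle and 3.12, 3.63 and 1.98 CPM with PTH. These values rest on 26 to 59 counts per library and overlapped through 1 library of each group. The log2 fold change was 0.70 (SE 0.285, adjusted p = 0.117), and it passed the threshold without vehicle replicate 2 (1.02, adjusted p = 0.0402) or without PTH replicate 3 (0.92, adjusted p = 0.0412). Vehicle replicate 1 had the highest share of mitochondrial counts of the 12 libraries (1.02%, against 0.815% and 0.78% in the other vehicle libraries of WT cells and 0.997% in WT PTH replicate 3). The part of this share in the low *Egr1* and *Egr2* values was not tested.

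In Y428F cells, the PTH values of the same genes are given as descriptions. *Egr2* measured 0.767, 0.657 and 0.601 CPM with vehicle and 3.38, 3.65 and 2.97 CPM with PTH, from 11 to 14 and from 54 to 65 counts. The groups were far apart, with a log2 fold change of 2.29 (SE 0.326), rank 3 of the 11218 genes in Y428F cells against rank 550 in WT cells. With PTH, *Egr2* in Y428F cells came within the range of WT cells with vehicle. *Egr1* measured 7.89, 7.43 and 6.55 CPM with vehicle and 9.65, 9.88 and 9.14 CPM with PTH (log2 fold change 0.39, SE 0.139). All 3 PTH libraries lay above all 3 vehicle libraries and below every WT library. *Egr3* measured 1.15, 0.961 and 1.42 CPM with vehicle and 1.44, 1.46 and 1.05 CPM with PTH, which overlapped (0.16, SE 0.325). Its log2 fold change ranged from 0.03 to 0.32 with single libraries left out.

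Both corepressors were higher with PTH in Y428F cells as well. *Nab2* measured 41.3, 40.5 and 37.7 CPM with vehicle and 128, 133 and 129 CPM with PTH, a 3.26-fold difference (log2 1.71, SE 0.0788) at rank 10. *Nab1* measured 55.5, 59.6 and 52.7 CPM with vehicle and 75.2, 75.0 and 72.8 CPM with PTH (log2 0.41, SE 0.0633). The PTH groups lay wholly above vehicle for *Egr1*, *Nab1* and *Nab2*, as for 15.5% of all genes. They did so for *Egr2* too, whose values here were known when the set was chosen. In this comparison 12.4% of all genes were called, 6.61% higher and 5.78% lower. The difference in response, Y428F minus WT on the log2 scale, was 1.89 for *Egr2* (SE 0.398), 0.68 for *Egr1* (SE 0.185), 0.23 for *Nab2* (SE 0.11), 0.03 for *Nab1* (SE 0.09) and -0.54 for *Egr3* (SE 0.432). With single libraries left out, this difference ranged from 0.14 to 0.33 for *Nab2* and from -0.85 to -0.34 for *Egr3*. Of all genes, 0.413% were called for a difference in response, 0.17% higher and 0.243% lower in Y428F cells.

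**Figure D2:**
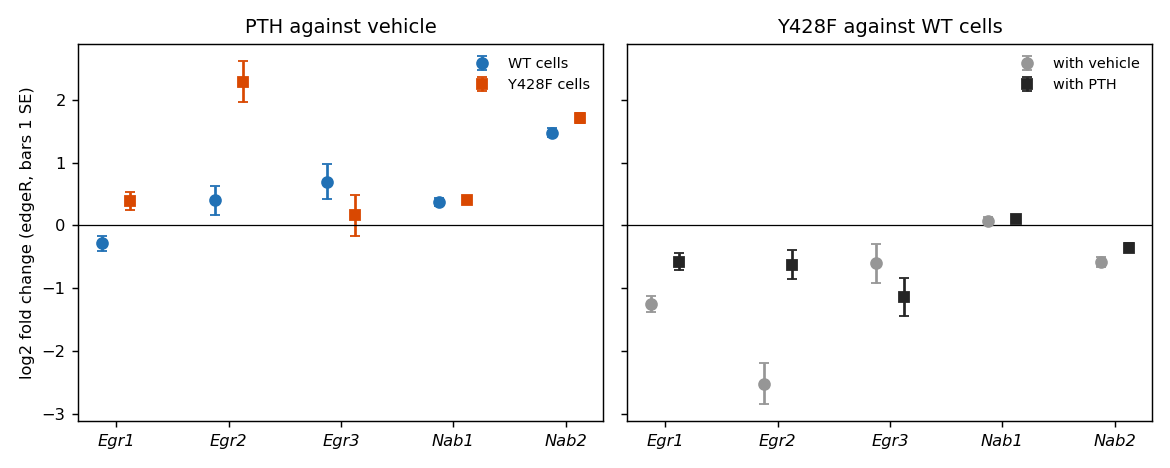
Log2 fold changes of the 5 genes with 1 SE from the edgeR fit of 12 libraries, for PTH against vehicle in each line (left) and for Y428F against WT cells with each treatment (right). *Nab2* stood at 1.48 in WT and 1.71 in Y428F cells, whereas *Egr2* stood at 0.40 and 2.29.

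The lines were also compared with each other under the same treatment, and some of the 5 genes differed with vehicle. With vehicle, *Egr2* was lower in Y428F cells (0.675 ± 0.0844 CPM) than in WT cells (3.92 ± 1.54 CPM), with a log2 fold change of -2.52 (SE 0.323), given as a description. The highest Y428F library (0.767 CPM) lay below the lowest WT library (2.33 CPM). *Egr1* fell from 17.4 ± 3.51 CPM in WT cells to 7.29 ± 0.678 CPM in Y428F cells (-1.25, SE 0.132, adjusted p = 9.14e-08, edgeR quasi-likelihood test), and *Nab2* from 59.8 ± 8.73 to 39.8 ± 1.87 CPM (-0.58, SE 0.081, adjusted p = 4.57e-06). None of these groups overlapped. *Egr3* (1.79 ± 0.617 and 1.18 ± 0.231 CPM) and *Nab1* (53.3 ± 3.73 and 55.9 ± 3.47 CPM) overlapped between the lines, with adjusted p of 0.125 and 0.408. So of the 4 members tested, 2 were lower and 0 higher in edgeR's test, where 22.7% of all genes were called lower and 22.4% higher, 45.1% in all. DESeq2 gave the same counts of members, and 0 of the 4 were higher at an unadjusted p below 0.05. Groups did not overlap, in the lower direction, for *Egr1* and *Nab2* and for 26.3% of all genes. The *Egr2* groups were apart as well, but their Y428F values were known when the set was chosen. As the RNA was bulk, fewer cells that express a gene and less RNA per cell cannot be told apart.

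Under PTH the Y428F line had less *Egr1*, *Egr3* and *Nab2* than WT cells. *Egr1* averaged 14.3 ± 0.983 CPM in WT cells and 9.56 ± 0.377 CPM in Y428F cells (log2 fold change -0.58, SE 0.131, adjusted p = 0.000999, edgeR quasi-likelihood test). *Egr3* averaged 2.91 ± 0.845 and 1.32 ± 0.234 CPM (-1.14, SE 0.298, adjusted p = 0.00321), and *Nab2* 166 ± 5.51 and 130 ± 2.83 CPM (-0.36, SE 0.074, adjusted p = 0.000457). *Egr2* averaged 5.16 ± 0.854 and 3.34 ± 0.34 CPM, a log2 fold change of -0.63 (SE 0.233), given as a description, and between -0.71 and -0.48 over the alternatives. Its groups did not overlap. *Nab1*, at 69.2 ± 2.32 and 74.3 ± 1.34 CPM, did not pass (0.10, adjusted p = 0.201), and all Y428F libraries lay above all WT libraries. Such separation under PTH was common, with 25.6% of all genes higher and 26.3% lower in every Y428F library. Hence 3 of the 4 members tested were lower in edgeR's and in DESeq2's test, where by edgeR 23.0% of all genes were called lower and 22.8% higher, 45.7% in all. None of the 4 was higher in either test or at an unadjusted p below 0.05.

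The balance between corepressors and transcription factors moved with PTH in both lines, described here as ratios of summed CPM per kilobase within each library. The NAB sum was 4.73, 3.23 and 3.69 times the EGR sum in WT cells with vehicle and 8.29, 8.3 and 9.2 times with PTH. In Y428F cells it was 7.5, 8.33 and 8.02 times with vehicle and 11, 10.9 and 12.1 times with PTH. The PTH libraries of each line lay above its vehicle libraries, and Y428F cells with vehicle overlapped WT cells with PTH. In WT cells the NAB sum went from 20.3 ± 1.35 to 45.5 ± 1.44 CPM per kilobase while the EGR sum was 5.41 ± 1.33 and 5.31 ± 0.474. In Y428F cells the NAB sum was 16.4 ± 0.813 with vehicle and 38.4 ± 0.675 with PTH, and the EGR sum 2.07 ± 0.145 and 3.39 ± 0.231, so both sums were higher with PTH in every library. The ratio of *Nab2* to *Nab1* was 1.72 ± 0.36 with vehicle and 3.66 ± 0.0827 with PTH in WT cells, and 1.09 ± 0.049 and 2.67 ± 0.0659 in Y428F cells. *Egr1* made up most of the EGR sum in all 12 libraries (55.7% to 80.6%). The *Egr2* share was 9.55 ± 0.52% in Y428F cells with vehicle, 28.9 ± 1.02% with PTH, and 20.7 ± 3.41% and 28.5 ± 3.64% in WT cells.

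**Figure D3:**
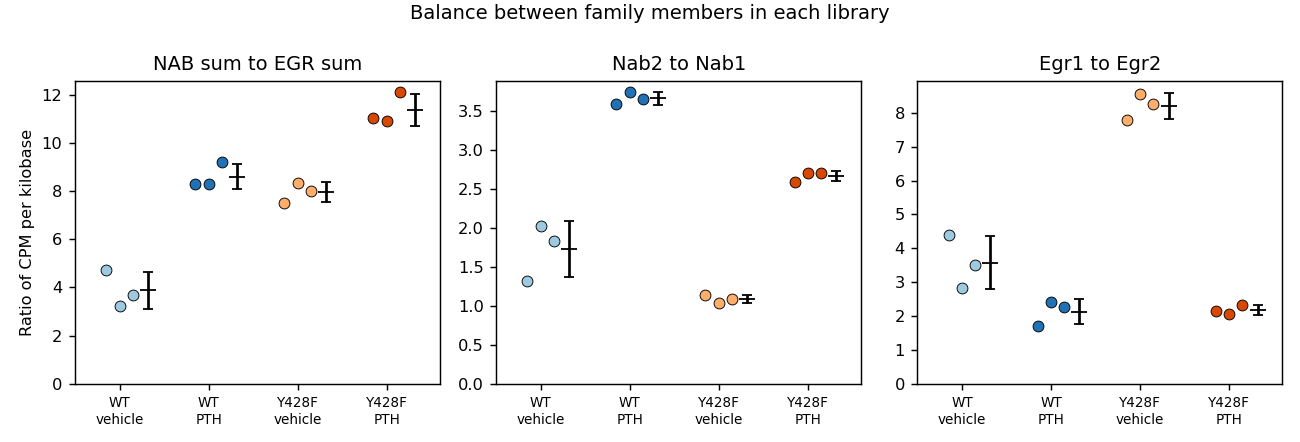
Ratios of CPM per kilobase in each of 12 libraries for the NAB sum over the EGR sum, *Nab2* over *Nab1* and *Egr1* over *Egr2* (linear axes from 0, points are libraries, black marks mean ± SD of 3). The *Egr1* to *Egr2* ratio was 8.21 ± 0.39 in Y428F cells with vehicle and 2.18 ± 0.14 with PTH, and 3.57 ± 0.782 and 2.13 ± 0.369 in WT cells.

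Other immediate early genes moved in both directions at 2 hours. Of 30 such genes, 8 rose and 8 fell with PTH in WT cells (median log2 fold change 0.11, against -0.02 over all genes), where 7.42% of all genes were called higher and 6.01% lower. In Y428F cells 13 rose and 5 fell (0.24, against -0.01), where the shares over all genes were 6.61% and 5.78%. *Ccn1*, a matricellular YAP target, rose from 217 ± 18.4 to 455 ± 52 CPM in WT cells (log2 1.07, adjusted p = 1.57e-08, edgeR quasi-likelihood test) and by 0.62 in Y428F cells. *Maff*, a small MAF factor, rose from 17 ± 0.428 to 30.6 ± 1.83 CPM in WT (0.85, adjusted p = 2.63e-07) and from 19.6 ± 1.24 to 59.2 ± 3.04 CPM in Y428F cells (1.60, adjusted p = 3.31e-11). The antiproliferative gene *Btg2* fell by 1.12 in WT and by 1.15 in Y428F cells on the log2 scale. *Fosb*, an AP-1 subunit, rose by 0.87 in WT cells (adjusted p = 0.0372), a call lost in 5 of the 19 alternatives, and its log2 fold change in Y428F cells was also 0.87 (adjusted p = 0.0625). The orphan receptor gene *Nr4a1* rose by 0.76 in WT and 1.04 in Y428F cells and *Fosl1*, another AP-1 subunit, by 0.77 and 0.99. With vehicle, 8 of the 30 were higher and 10 lower in Y428F cells (22.4% and 22.7% of all genes). *Nr4a1* was 2.33-fold and the phosphatase gene *Dusp1* 1.76-fold lower, while *Arc* and *Klf10* were 1.67-fold and 1.66-fold higher. With PTH, 9 were higher, *Ier3* by 1.35, and 9 lower (22.8% and 23.0% of all genes). The WT count of falls was 4 without vehicle replicate 2, vehicle replicate 3 or PTH replicate 3, and 5 without PTH replicate 2 or Y428F PTH replicate 3. The Y428F count of rises was 8 without vehicle replicate 2.

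Among 20 genes for SRF, its partners and the ERK and CREB pathways, which lie upstream of EGR promoters, 6 rose and 0 fell with PTH in WT cells, and 4 rose and 0 fell in Y428F cells (medians 0.07 and 0.02). Over all genes 7.42% were called higher in WT and 6.61% in Y428F cells. *Srf*, whose product binds CArG boxes, rose from 74.3 ± 7.51 to 235 ± 12.1 CPM in WT cells, a 3.16-fold rise (adjusted p = 1.08e-12, edgeR quasi-likelihood test). In Y428F cells it rose from 78.1 ± 1.71 to 182 ± 8.62 CPM, 2.34-fold (adjusted p = 2.49e-10). The SRF coactivator gene *Mrtfa* rose in both lines (0.25 in WT and 0.38 in Y428F cells), and *Mrtfb* rose by 0.33 in WT cells, with 0.23 in Y428F cells (adjusted p = 0.0733). The other rises were small, such as the ternary complex factor *Elk4* (0.32) and the kinase *Rps6ka3* (0.25) in WT cells and *Atf1* in both lines (0.22 and 0.24). In Y428F cells *Elk4* was at 0.20 and *Rps6ka3* at -0.01, neither past the threshold. The calls of *Elk4* and *Rps6ka3* were lost in 7 and 5 of their 19 alternatives, and those of *Mrtfb* in WT cells and *Atf1* in Y428F cells in 1 each. At an unadjusted p below 0.05, 1 gene of the list fell in WT and 0 in Y428F cells, and DESeq2 called 0 falls in both. The WT count was 2 without PTH replicate 1 or PTH replicate 2, and the Y428F count was 2 without vehicle replicate 1. Scaling by library totals also gave 2 rises in WT cells, and 1 fall was called there with that scaling or with the filter of at least 10 counts in every library. With vehicle, 6 of the 20 were higher in Y428F cells, led by the ternary complex factor *Elk3* (1.57-fold), and 4 lower, namely the CREB coactivator *Crtc1* (1.49-fold), *Elk1* (1.32-fold), *Crtc3* and *Mapk3*, where 22.4% and 22.7% of all genes were called. With PTH, 7 were higher and 7 lower (22.8% and 23.0% of all genes).

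Genes whose products work with the EGR and NAB proteins were compared next. Of 5 EGR cofactors (*Crebbp*, *Ep300*, *Hcfc1*, *Wwp2* and *Ddx20*), 0 were called with PTH in either line in edgeR's quasi-likelihood test or by DESeq2, where edgeR called 13.4% of all genes in WT and 12.4% in Y428F cells. At an unadjusted p below 0.05, 1 was higher in WT cells and 0 changed in Y428F cells. Across the 13 subunits of NuRD, *Rbbp7* (0.22) rose and *Mta3* fell by 0.20 in WT cells, and *Mbd2* (0.30) rose in Y428F cells, so that 2 and 1 of 13 were called. In the line where they were not called, *Rbbp7* was at 0.12, *Mta3* at -0.19 and *Mbd2* at 0.16, each in the same direction. The count of rises in WT cells was 3 without vehicle replicate 1, and that of falls was 2 with library totals. No subunit fell in Y428F cells in edgeR's test, whereas 1 did at an unadjusted p below 0.05, in DESeq2 and in some of the other edgeR fits, among them those without WT vehicle replicate 1 or WT PTH replicate 3. The call of *Mta3* was lost in 12 of 19 alternatives, including those without any WT library but vehicle replicate 1 (adjusted p up to 0.217). Between the lines with vehicle, 5 NuRD subunits were higher (*Chd3*, *Hdac1*, *Hdac2*, *Rbbp7* and *Mbd3*) and 2 lower (*Mta1* and *Mbd2*) in Y428F cells, against 22.4% and 22.7% of all genes, and the same genes were called with PTH. The remodeling ATPase gene *Chd3* averaged 190 ± 20.4 CPM in WT cells against 355 ± 10.7 CPM in Y428F cells with vehicle (1.87-fold, adjusted p = 2.02e-08). *Hdac2* was 1.46-fold, *Rbbp7* 1.44-fold and *Mbd3* 1.43-fold higher. The acetyltransferase gene *Ep300* was 1.20-fold higher and *Wwp2*, a ubiquitin ligase gene for EGR2, 1.15-fold lower, calls that were lost without vehicle replicate 1 of WT cells for *Ep300* (0.21) and without vehicle replicate 2 or 3 of WT cells (-0.20 and -0.16) or vehicle replicate 2 of Y428F cells (-0.18) for *Wwp2*. Scaling by library totals also lost the call of *Wwp2* (-0.14). Under PTH, *Wwp2* was lower in Y428F cells (-0.26, adjusted p = 0.00416, edgeR quasi-likelihood test) and *Ep300* higher (0.25, adjusted p = 0.0236). Of all genes, 23.0% were called lower and 22.8% higher there. The *Wwp2* call was kept in all 19 alternatives and that of *Ep300* was lost in 4.

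Known EGR target genes did not move as 1 block. Of 24 listed, 23 were tested, and 5 rose and 2 fell with PTH in WT cells (median -0.02, the same as over all genes). In Y428F cells 6 rose and 1 fell (0.08). Over all genes 7.42% rose and 6.01% fell in WT cells, and 6.61% and 5.78% in Y428F cells. *Thbs1*, which encodes thrombospondin 1, rose from 2928 ± 292 to 7336 ± 807 CPM in WT cells (2.51-fold, adjusted p = 1.32e-08, edgeR quasi-likelihood test) and from 1894 ± 116 to 3463 ± 582 CPM in Y428F cells (1.83-fold, adjusted p = 5.94e-06). The growth factor gene *Pdgfa* (0.36) and the macrophage factor *Csf1* (0.36) rose in WT cells, as did *Cd44* (0.33), while *Vegfa*, which encodes an angiogenic factor, and *Ccnd1* fell by 0.43 and 0.21. *Csf1* (0.33), *Cd44* (0.31), *Pdgfa* (0.25) and tissue factor *F3* (0.34) rose in Y428F cells, and *Ccnd1* fell by 0.22. *F3* in WT cells (-0.15) and *Vegfa* in Y428F cells (-0.07) did not pass the threshold. The count of falls in WT cells was 4 with library totals and 1 in the fit of 6 libraries or without vehicle replicate 2, vehicle replicate 3 or PTH replicate 3, and the single fall in Y428F cells was lost without vehicle replicate 1, PTH replicate 1 or PTH replicate 3.

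Between the lines with vehicle, 6 EGR target genes were higher and 10 lower in Y428F cells, where 22.4% and 22.7% of all genes were called. *F3* averaged 58.8 ± 3.92 CPM in WT cells and 27 ± 1.22 CPM in Y428F cells (2.18-fold lower, adjusted p = 4.42e-11), and *Pdgfb* 4.17 ± 0.176 and 1 ± 0.414 CPM (4.17-fold lower). The cyclin gene *Ccnd1* (270 ± 11.1 and 515 ± 12.8 CPM) and the protease gene *Plau* (0.38 ± 0.0449 and 3.99 ± 0.279 CPM) were higher. With PTH, 7 were higher and 8 lower (22.8% and 23.0% of all genes). Of 10 myelin and hindbrain targets of EGR2, 8 were tested. The ephrin receptor gene *Epha4* was the only one called by edgeR with PTH in each line, where 13.4% of all genes were called in WT and 12.4% in Y428F cells, at 5.52 ± 0.389 and 9.24 ± 0.435 CPM in WT cells, and 1.99 ± 0.538 and 4.41 ± 0.918 CPM in the Y428F line (adjusted p = 0.00419 and 0.00057). A fall of 1 gene in WT cells was also called by DESeq2, with library totals, with either other filter on low counts, and without vehicle replicate 2 or PTH replicate 3. With PTH, 2 of the 8 were higher in Y428F cells (*Hoxb2* and *Prx*) and 3 lower (*Epha4*, *Pmp22* and *Hoxa2*). With vehicle, *Epha4* and the myelin protein gene *Pmp22* were 2.79-fold and 1.94-fold lower in Y428F cells, while *Hoxb2* and *Prx* were 1.29-fold and 1.20-fold higher, calls lost in 8 and 3 of 19 alternatives.

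**Figure D4:**
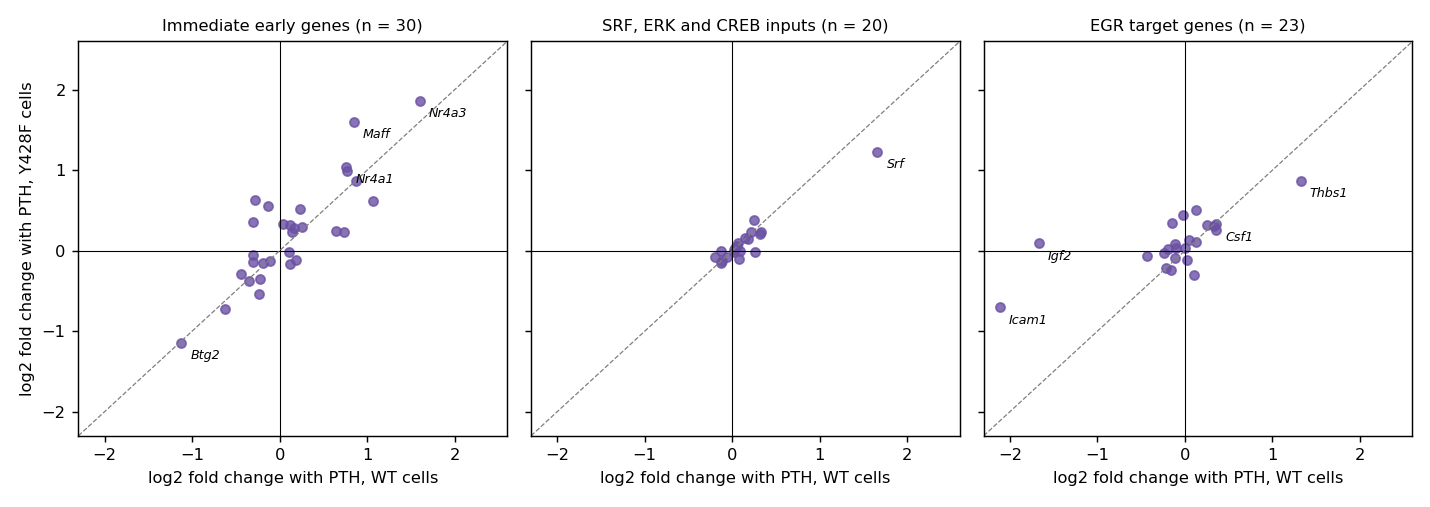
Response to PTH as log2 fold change, Y428F cells (vertical) against WT cells (horizontal), 1 point per gene, for immediate early genes (30), SRF, ERK and CREB inputs (20) and EGR target genes (23 tested), with a dashed line of equal change. *Srf* stood at 1.66 and 1.22 and *Thbs1* at 1.32 and 0.87, whereas most points lay near 0. *Nr4a3*, *Icam1* and *Igf2* are labelled for their place on the plot and averaged under 2 CPM.

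The genes whose profiles were most like *Egr1*, *Egr2*, *Egr3* and *Nab2* were ranked (*Nab1* was not included) by Pearson's r of log2 CPM over the 12 libraries, over the 11218 genes averaging 2 CPM or more. These libraries share 4 group means, so high values are common and carry no test. For *Nab2* they were *Gfod1* (r = 0.994), the zinc transporter *Slc30a1* (0.984), *Taf5l* (0.984) and the serum and glucocorticoid kinase *Sgk1* (0.982). *Sgk1* averaged 19 ± 1.2 and 68.2 ± 9.95 CPM with vehicle and PTH in WT cells, and 15.3 ± 1.88 and 44.6 ± 2.46 CPM in Y428F cells. For *Egr2* they were *Flcn* (0.965), *Sh3gl1* (0.958), *Ier5l* (0.95) and *Zfp36l2* (0.95). *Flcn*, the folliculin gene, averaged 110 ± 8.68 and 121 ± 3.03 CPM in WT cells, and 61.8 ± 3.95 and 95.2 ± 1.89 CPM in Y428F cells. For *Egr1* they were the TEAD cofactor *Vgll4* (0.976), *Arhgap24* (0.973), *Vps11* (0.962) and *F3* (0.958), and for *Egr3* they were *Rhbdd1* (0.947), *Pip4k2a* (0.934), *Armcx1* (0.931) and *Pip5k1b* (0.925). Of the 4 genes named for each, Spearman's correlation shared 1 for *Egr1*, 0 for *Egr2*, 1 for *Egr3* and 1 for *Nab2*.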

How the data were processed

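The authors mapped reads with STAR 2.7.10b to GRCm39 with the basic GENCODE annotation vM31 and deposited RSEM expected counts per gene, with no scaling for depth. Their own normalization used DESeq2. The expected counts (6.32% of values not whole) were rounded and analysed with edgeR 4.0.16 in R 4.3.3: TMM factors, genes with at least 10 counts in total, and the quasi-likelihood test (limma 3.58.1 loaded with it) over 12 libraries in 4 groups, with Benjamini-Hochberg adjustment over all genes. Per-length values used the union of exons in GENCODE vM39. Gene identifiers were matched by their stable part, 56236 of 56980, and 31817 genes had 0 counts in all libraries. Library columns not used numbered 0.

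The members and gene lists were chosen with earlier results of these data known, so patterns shown before are not independent support. The planned test of *Egr2* between the lines was not used, since it shares libraries with the values known at that choice. Lists came from general knowledge. Named genes were the members, *Egr4* and *Wt1*, up to 4 genes per list and comparison with the largest absolute log2 fold change among those called with a mean of at least 2 CPM, the 4 genes most like each of *Egr1*, *Egr2*, *Egr3* and *Nab2*, and cell type markers. *Nemp1*, *Stat6*, *Gm16229* and *Gm66196* were added for their overlap. Further genes were named after their values were seen, to complete short counts. Some genes counted in the lists are not reported here by name. Replicates differed by more than counting noise (chi-square per degree of freedom 2.94 to 15.2). Alternatives were DESeq2 1.42.0 (size factors or Wald test), library totals, other filters, fits of 6 libraries, a replicate block and each library left out. On simulated counts, changes of 2-fold were called for 92% of altered genes in the PTH comparison of WT cells, 92% in that of the lines with vehicle and 86% for the response difference. At 1.25-fold the shares were 40%, 35% and 10%. In each simulation 100 genes were altered at each size, drawn from genes above a floor of expression, and 17491 were left unchanged. In the data 13.4% of genes were called with PTH in WT cells and 45.1% between the lines with vehicle, so these shares need not hold there. Figures used matplotlib 3.10.9.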

Additional observations from a re-analysis of the deposited data

Results flagged for a closer look

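Of 126 list genes tested, 6 had a difference in PTH response between Y428F and WT cells that passed edgeR's quasi-likelihood test, against 0.413% of all genes (0.17% higher and 0.243% lower in Y428F cells). The lists were written with earlier results of these data known, and the tested genes include low-count ones. The count of 6 is therefore not independent support for a difference from all genes. *Ier3*, an early stress-response gene, differed by 0.91 on the log2 scale (adjusted p = 0.0169), with 13.9 ± 1.17 and 11.4 ± 2.52 CPM in WT cells and 18.9 ± 0.456 and 29.3 ± 2.96 CPM in Y428F cells for vehicle and PTH. *Maff* differed by 0.75 (adjusted p = 0.00187). The AP-1 gene *Junb* differed by 0.69 (adjusted p = 0.0215), at 74.4 ± 12.2 and 67.8 ± 6.48 CPM in WT and 62.3 ± 3.36 and 91.5 ± 5 CPM in Y428F cells. *F3* differed by 0.49 (adjusted p = 0.0271) and *Vegfa* by 0.37 (adjusted p = 0.0372), which fell with PTH in WT cells (149 ± 7.66 to 111 ± 4.86 CPM) and measured 120 ± 2.25 and 115 ± 2.52 CPM in Y428F cells. *Srf* differed by -0.44 (adjusted p = 0.0456), the smaller rise being in Y428F cells. Over the 18 alternatives the highest adjusted p was 0.0125 for *Maff*, 0.0621 for *Ier3*, 0.0794 for *Junb*, 0.116 for *F3*, 0.137 for *Vegfa* and 0.194 for *Srf*, so that only *Maff* of these 6 kept its call in all 18. The direction of these 6 held in all 18.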

How the results depend on the processing

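Of 247 tested values of the 5 members under the alternatives, 243 kept their direction and side of the threshold and 4 passed it newly. Of 223 values given as descriptions, 221 kept their sign. The other 2 were the difference in response of *Nab1*, -0.04 without WT vehicle replicate 1 and -0.02 without Y428F vehicle replicate 3. With library totals in place of TMM, *Nab1* in Y428F against WT cells with PTH was 0.17 (adjusted p = 0.0321), and 1608 genes were called lower with PTH in WT cells (main count 1063). That scaling moved the share of called genes that were higher from 55.2% to 37.3% for PTH in WT cells and from 53.4% to 38.1% in Y428F cells. DESeq2's Wald test called 51 genes higher and 72 lower for the difference in response (main counts 30 and 43), and no filter on low counts gave 96 and 120. The causes were not tested.

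Leaving out single libraries gave ranges of -0.43 to -0.16 for *Egr1*, 0.14 to 0.71 for *Egr2* and 0.51 to 1.02 for *Egr3* with PTH in WT cells, and -0.71 to -0.48 for *Egr2* between the lines with PTH. *Nab2* with PTH in WT cells stayed between 1.38 and 1.57, and *Egr2* between the lines with vehicle between -2.79 and -2.23. Genes called lower ranged from 643 to 1097 in WT and from 616 to 1186 in Y428F cells. The WT count was 643, 666 or 675 without vehicle replicate 2, vehicle replicate 3 or PTH replicate 1, and the Y428F count 616, 676 or 651 without vehicle replicate 1, vehicle replicate 2 or PTH replicate 1. Genes called for the difference in response ranged from 6 to 37 higher and from 18 to 57 lower, with both lowest counts in the fit without Y428F PTH replicate 3 (18 lower also without WT PTH replicate 1). Same-numbered libraries of different groups did not visibly deviate together (mean r 0.0019 over 18 pairs, 5 of 12 libraries closest to their own number), so the numbers were not treated as a pairing. A weak shared effect of preparation could go unseen, since all tested genes entered this correlation, low-count ones included. The replicate block gave 1.48 for *Nab2* in WT cells (adjusted p = 4.36e-12) and -2.51 for *Egr2* between the lines with vehicle, and it changed no call of a member. Of 107 results of named list genes, 21 lost their call in at least 1 alternative and none reversed. With the longest transcript as length, 8 of 20 levels per length moved by more than 1 SD and the order of the members by group mean was the same in all 4 groups. At 11 to 59 counts per library, *Egr2* in Y428F cells with vehicle and *Egr3* throughout are the least precise values.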
